A study of Mus musculus with 12 samples.

Results

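The comparison described here is the interaction of line and OxLDL in RAW 264.7 cells, a macrophage cell line of BALB/c mouse origin: how far the change that oxidised low-density lipoprotein (OxLDL) brought in 1 stable line differed from the change it brought in another. It was computed for every gene as the log2 difference between OxLDL and untreated cells of the line labelled sh-PHLPP1 minus the same difference in the sh-Luc line, and the genes were then sorted by the line difference before OxLDL and after it. All 12 of 12 libraries of the series entered the fit, 3 in each of 4 groups. These groups were the line labelled sh-PHLPP1 with OxLDL and untreated, and the control line sh-Luc with OxLDL and untreated. Both lines had been nucleofected with a short hairpin RNA, one named for the phosphatase PHLPP1 and the other for luciferase, and selected with puromycin, so that the controls carried a hairpin and the selection too. OxLDL was given at 100 µg/ml for 24 hours. Each group held cells of passages 9, 10 and 11 of 1 stable line, so the error behind each p-value is that among 3 passages of a line and not that among independently made lines. A difference between the lines cannot be told apart from a difference between 2 separately selected populations.

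OxLDL is lipoprotein whose lipids have been oxidised; macrophages take it up through scavenger receptors such as CD36 and MSR1, store its cholesterol in droplets and become foam cells, the lipid-laden cells of atherosclerotic plaques. Oxidised lipids are also sensed by pattern recognition receptors, which lead through NF-kB and interferon regulatory factors to cytokine and chemokine genes, and they activate NRF2 and nuclear receptors of the PPAR and LXR families. PHLPP1 is a phosphatase known for removing an activating phosphate from the kinase AKT and from several other kinases, and the study's title links it to lipid uptake, AMPK and ChREBP, the transcription factor encoded by Mlxipl.

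The 12 libraries held 16020186 to 27422114 counts over 39179 genes, of which 13121 had enough counts to be tested. Levels are CPM, counts scaled to a common library total by the trimmed mean of M values (TMM), and are listed for replicates 1, 2 and 3 in turn. Most macrophage genes were abundant, with 22 of 25 on the macrophage list tested, among them Csf1r, Cd68, Adgre1 and Lyz2. Mertk, Maf and Ly6c2 were not tested, with 3, 23 and 1 counts over the 12 libraries. Of 12 fibroblast and epithelial markers 5 had no count in any library, as did 7 of 15 lymphocyte, granulocyte and mast cell markers and 2 of 10 dendritic cell markers. Within groups, log2 CPM correlated between libraries at r = 0.966 to 0.995. A library of the line labelled sh-PHLPP1, untreated replicate 1, was the farthest from its group (r = 0.967 and 0.966 with its replicates), and sh-Luc untreated replicate 2 (0.983 and 0.984) and replicate 3 of the line labelled sh-PHLPP1 with OxLDL (0.984 and 0.987) also stood apart. All 3 enter the values below, and for several results that they move the value without them is also given. In bulk libraries a change in the share of cells that express a gene and a change in RNA per cell cannot be told apart.

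Phlpp1 itself (ENSMUSG00000044340, chr1:106171752-106394250 of GRCm38) was not lower in the untreated line labelled sh-PHLPP1. Phlpp1 had 8.65, 8.35 and 7.40 CPM with OxLDL and 17.3, 14.6 and 14.0 CPM without it in the line labelled sh-PHLPP1, against 11.4, 13.5 and 11.4 CPM with OxLDL and 12.4, 14.4 and 13.3 CPM without it in the sh-Luc line. Without OxLDL the libraries labelled sh-PHLPP1 gave 2 values above every sh-Luc library and 1 inside their range; with OxLDL all 3 lay below the 3 sh-Luc libraries. The fitted line difference was -0.57 ± 0.14 on the log2 scale after OxLDL (SE; edgeR quasi-likelihood test, adjusted p = 0.00385) and 0.19 ± 0.13 before it (adjusted p = 0.279). The interaction was -0.77 ± 0.19 (95% interval -1.18 to -0.36, adjusted p = 0.0133), where OxLDL lowered Phlpp1 1.88-fold in the line labelled sh-PHLPP1 and the sh-Luc response, -0.14 ± 0.13, was not called. The untreated level of the targeted gene therefore goes against the label, protein was not measured, and the line is called by its label throughout. Phlpp2, the paralogous phosphatase, had an interaction of -0.86 ± 0.26 (adjusted p = 0.0317), a call that was lost in 5 of the alternative fits. Mlxipl had 2 counts over the 12 libraries and Prkaa2, a catalytic subunit of AMPK, had 0, so neither was tested.

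OxLDL changed far more genes in the line labelled sh-PHLPP1 than in sh-Luc, and for 3231 of 13121 tested genes (24.6%) the change itself differed between the lines at an adjusted p below 0.05. The interaction was higher in 1451 of them (11.1% of those tested), where OxLDL raised the gene more or lowered it less in the line labelled sh-PHLPP1, and lower in 1780 (13.6%). OxLDL changed 7169 genes (54.6%) in the line labelled sh-PHLPP1, with 26.2% of those tested higher and 28.4% lower, and 1242 (9.47%) in sh-Luc, with 6.38% higher and 3.09% lower. The lines differed at 7240 genes (55.2%) after OxLDL, where 27.6% were higher and 27.6% lower in the line labelled sh-PHLPP1, and at 3549 (27.0%) before it, where 14.9% were higher and 12.2% lower. At an added log2 size of at least 1, the interaction was called for 1501 genes (11.4%), the line difference for 2874 after OxLDL (21.9%) and 1181 before it (9.00%), and the OxLDL response for 2873 in the line labelled sh-PHLPP1 (21.9%) and 491 in sh-Luc (3.74%). Among the 3231 interaction genes the response was the larger one in the line labelled sh-PHLPP1 at 3027 and in sh-Luc at 204; OxLDL was called in opposite directions in the 2 lines at 37. With each OxLDL library set against each untreated library of its line, the responses of the 2 lines did not overlap at 3925 of all tested genes (29.9%), and 3029 of these were among the 3231. The fit shares 1 estimate of spread per gene over the groups, so a library that stands apart touches each comparison. The interaction count was 4496 without sh-PHLPP1 untreated replicate 1 and 2114 without sh-Luc OxLDL replicate 3, and the count of higher genes fell to 940, 957 and 886 without sh-Luc OxLDL replicate 1, 2 or 3. The baseline count was 6372 without sh-PHLPP1 untreated replicate 1, 1515 and 1566 without replicate 2 or 3 of that group, and 2247 without sh-Luc untreated replicate 2. The sh-Luc response count was 3086 without sh-PHLPP1 untreated replicate 1, 698, 564 and 652 without sh-Luc OxLDL replicate 1, 2 or 3, and 639 and 697 without sh-Luc untreated replicate 1 or 3. The median interaction of all tested genes was -0.05 with TMM scaling and -0.43 when libraries were scaled by their totals alone, which moved the split to 569 higher and 4214 lower, so small values below are read against that shift.

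Sorting the 3231 genes by baseline against OxLDL showed that for most of them the lines had no called difference before treatment. At 2153 genes (66.6%) a line difference was called after OxLDL and not before it, which is named here an opened gap: 1007 opened upwards in the line labelled sh-PHLPP1, with a median line difference of 0.88 on the log2 scale after OxLDL and -0.04 before it, and 1146 downwards, with medians of -0.93 after and 0.01 before. At 403 genes (12.5%) a baseline gap closed, 153 of them low in the untreated line labelled sh-PHLPP1 and 250 high. The gap changed sign at 239 (7.40%): for 124 of them the median line difference was 0.98 after OxLDL and -0.83 before it, and for 115 it was -0.73 after and 0.58 before. It widened at 296 (9.16%) and narrowed at 42 (1.30%), and at 98 (3.03%) neither line difference was called. These shares move with a single library. Without sh-PHLPP1 untreated replicate 1, 1918 of 4496 genes opened (42.7%), 954 closed, 537 changed sign, 688 widened and 314 narrowed, while without replicate 2 of that group 2325 of 2851 opened (81.6%), 174 closed, 110 changed sign, 99 widened and 28 narrowed. By the fitted values, whatever their tests, the line difference was larger after OxLDL than before it at 2622 of the 3231 genes and smaller at 609.

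**Figure D1:**
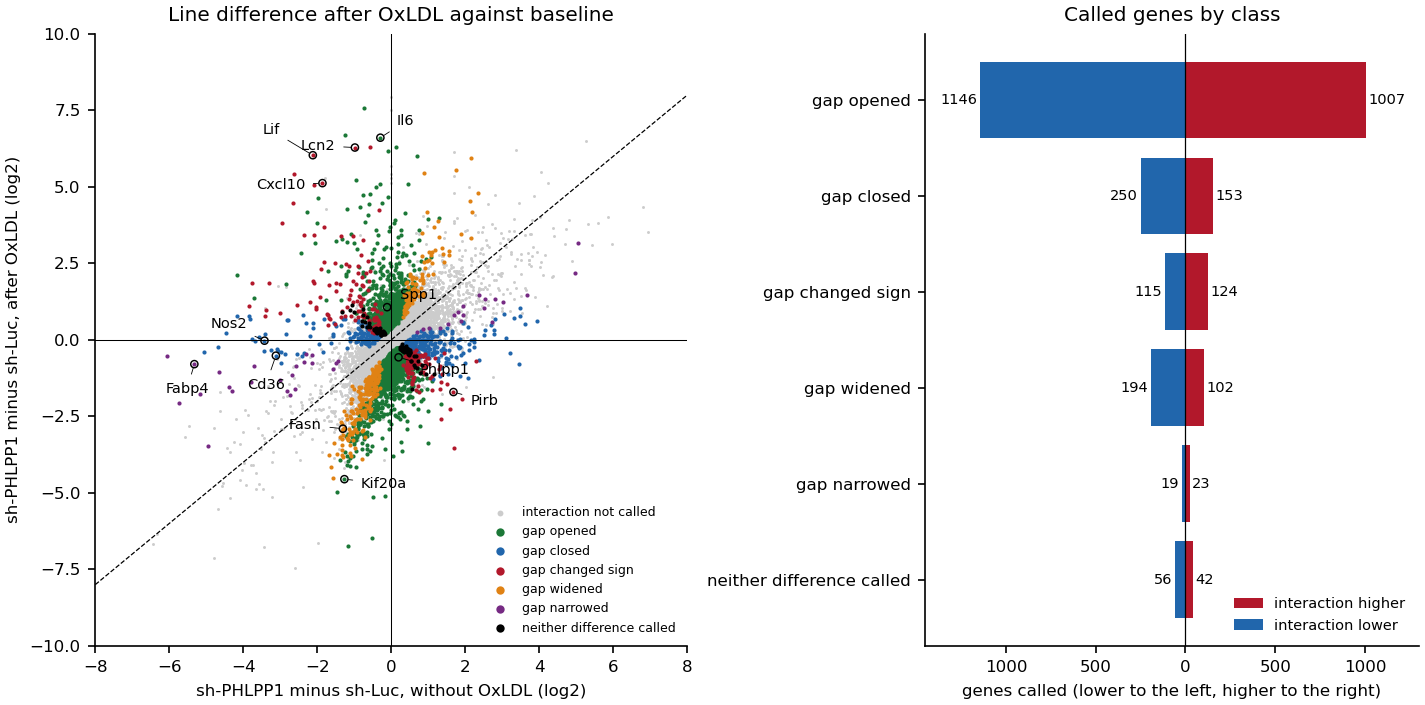
Line difference (line labelled sh-PHLPP1 minus sh-Luc, log2) after OxLDL against the same difference without OxLDL, 1 point per tested gene, with the 3231 interaction genes coloured by class and the dashed line marking equal differences; bars give the number in each class with the interaction higher (right) or lower (left). Most coloured points lie along the vertical axis, where the 2153 genes with an opened gap are.

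Chemokines and inflammatory genes had the highest median interactions among the lists with 10 or more tested genes. Of 25 chemokines 10 were not tested, and of the 15 tested 12 had a higher interaction (80.0%) and 0 a lower one (median 4.35). Of 27 cytokine genes and NF-kB targets 23 were higher (85.2%) and 0 lower. Their median was 3.06 on the log2 scale, against -0.05 over all tested genes, where 11.1% were higher and 13.6% lower. A gene can pass the count filter through 1 group where it is high, and the lists were chosen with earlier results known. These counts and medians describe the lists and are not tests of them. OxLDL raised 25 of the 27 in the line labelled sh-PHLPP1 and 9 in sh-Luc, with median changes of 3.56 and, in sh-Luc, 0.56. Untreated, 10 of them were lower and 3 higher in the line labelled sh-PHLPP1 than in sh-Luc; after OxLDL 24 were higher and 0 lower. With 1 library left out at a time, 22 to 24 of the 27 and 11 to 12 of the chemokines had a higher interaction, and with total-count scaling 20 and 12 had.

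Lif, a cytokine of the interleukin-6 family, had the highest interaction of the genes ranked. These were called genes averaging at least 2 on the log2 CPM scale, with responses that did not overlap between the lines. Lif stood at 637, 643 and 515 CPM with OxLDL and 1.51, 0.832 and 1.51 CPM without it in the line labelled sh-PHLPP1, against 7.77, 10.4 and 9.22 CPM with OxLDL and 2.97, 9.41 and 4.09 CPM without it in the sh-Luc line. The 3 OxLDL libraries labelled sh-PHLPP1 were far above the other 9, while the untreated ones were the lowest of all. The interaction was 8.15 ± 0.52 (adjusted p = 1.43e-06): the line difference was 6.03 after OxLDL and -2.12 before it. Lcn2, which encodes the iron-sequestering protein lipocalin, rose in both lines. Lcn2 stood at 1338, 1323 and 1818 CPM with OxLDL and 1.51, 1.80 and 2.14 CPM without it in the line labelled sh-PHLPP1, against 18.0, 20.4 and 19.1 CPM with OxLDL and 3.64, 3.54 and 3.67 CPM without it in the sh-Luc line. No 2 groups overlapped. OxLDL raised it 817-fold in the line labelled sh-PHLPP1 and 5.30-fold in sh-Luc, an interaction of 7.27 ± 0.24 (adjusted p = 5.05e-09). Ptgs2 encodes the inducible cyclooxygenase that makes prostaglandins. Ptgs2 stood at 14507, 14072 and 18844 CPM with OxLDL and 41.2, 47.5 and 46.6 CPM without it in the line labelled sh-PHLPP1, against 566, 809 and 742 CPM with OxLDL and 142, 549 and 157 CPM without it in the sh-Luc line. The sh-Luc untreated replicate 2 was close to the lowest OxLDL-treated sh-Luc library, and the interaction was 7.13 ± 0.63. Without that library it was 6.20.

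Il6, Il1b and Csf2, which encode interleukin-6, interleukin-1 beta and the growth factor GM-CSF, had at most 1.47 CPM outside the OxLDL libraries labelled sh-PHLPP1. Il6 stood at 47.0, 45.7 and 69.0 CPM with OxLDL and 0.0458, 0.133 and 0.0793 CPM without it in the line labelled sh-PHLPP1, against 0.439, 0.552 and 0.685 CPM with OxLDL and 0.0887, 0.0804 and 0.169 CPM without it in the sh-Luc line. The 3 OxLDL libraries labelled sh-PHLPP1 stood clear of the other 9. Il1b stood at 28.0, 27.4 and 34.3 CPM with OxLDL and 0.321, 0.0333 and 0.159 CPM without it in the line labelled sh-PHLPP1, against 0.790, 1.03 and 0.810 CPM with OxLDL and 0.709, 0.644 and 0.716 CPM without it in the sh-Luc line. Csf2 stood at 71.7, 85.4 and 104 CPM with OxLDL and 0.0458, 0.599 and 0.396 CPM without it in the line labelled sh-PHLPP1, against 0.571, 1.47 and 1.25 CPM with OxLDL and 0.443, 0.0804 and 0.506 CPM without it in the sh-Luc line. The interactions were 6.90 ± 0.82 for Il6, 7.15 ± 0.50 for Il1b and 6.17 ± 0.90 for Csf2, with adjusted p of 1.73e-04, 2.46e-06 and 6.78e-04; Il6 rests on 7 and 8 counts in the untreated groups, sh-PHLPP1-labelled and sh-Luc. Tnf, the tumour necrosis factor gene, was abundant in every group. Tnf stood at 3128, 3403 and 4579 CPM with OxLDL and 117, 55.1 and 62.1 CPM without it in the line labelled sh-PHLPP1, against 653, 880.3 and 724 CPM with OxLDL and 211, 442 and 229 CPM without it in the sh-Luc line. Its line difference was 2.30 after OxLDL (adjusted p = 1.44e-04) and -1.91 before it (adjusted p = 0.00227), so the order of the lines reversed. Nfkbia, which encodes an inhibitor of NF-kB, and Nfkbiz were among the higher genes, with interactions of 3.06 ± 0.27 and 3.55 ± 0.35. Il12b, Rela, Rel and Tnfaip2 were the 4 members of the list with no called interaction.

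Chemokines followed the same order. Cxcl10, an interferon- and NF-kB-responsive attractant of T cells, moved in opposite directions in the 2 lines. Cxcl10 stood at 246, 253 and 384 CPM with OxLDL and 13.4, 3.56 and 4.04 CPM without it in the line labelled sh-PHLPP1, against 7.51, 9.16 and 8.72 CPM with OxLDL and 19.0, 29.0 and 27.4 CPM without it in the sh-Luc line. OxLDL raised it 42.5-fold in the line labelled sh-PHLPP1 and lowered it 2.97-fold in sh-Luc (adjusted p = 1.68e-06 and 0.0285); replicate 1 was the highest untreated library of its line, and the interaction was 6.98 with it and 7.83 without it. Ccl5 stood at 230.1, 222 and 278 CPM with OxLDL and 1.74, 1.63 and 1.66 CPM without it in the line labelled sh-PHLPP1, against 3.07, 3.09 and 3.05 CPM with OxLDL and 3.06, 1.77 and 2.70 CPM without it in the sh-Luc line. The OxLDL response of Ccl5, which attracts T cells and monocytes, was 7.18 ± 0.19 in the line labelled sh-PHLPP1 and 0.30 ± 0.18 in sh-Luc (adjusted p = 0.328). Cxcl2, a neutrophil attractant, rose in both lines but by more in the line labelled sh-PHLPP1: 344-fold against 12.8-fold (interaction 4.74 ± 0.36). The monocyte attractant Ccl2 had a line difference of 0.97 after OxLDL and -3.39 before it. Cxcl3 had 1 count over the 3 untreated libraries labelled sh-PHLPP1, so its fitted value depends on the prior count. Its OxLDL libraries read 15.1, 16.8 and 23.1 CPM in that line and 0.790, 1.36 and 0.810 CPM in sh-Luc.

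**Figure D2:**
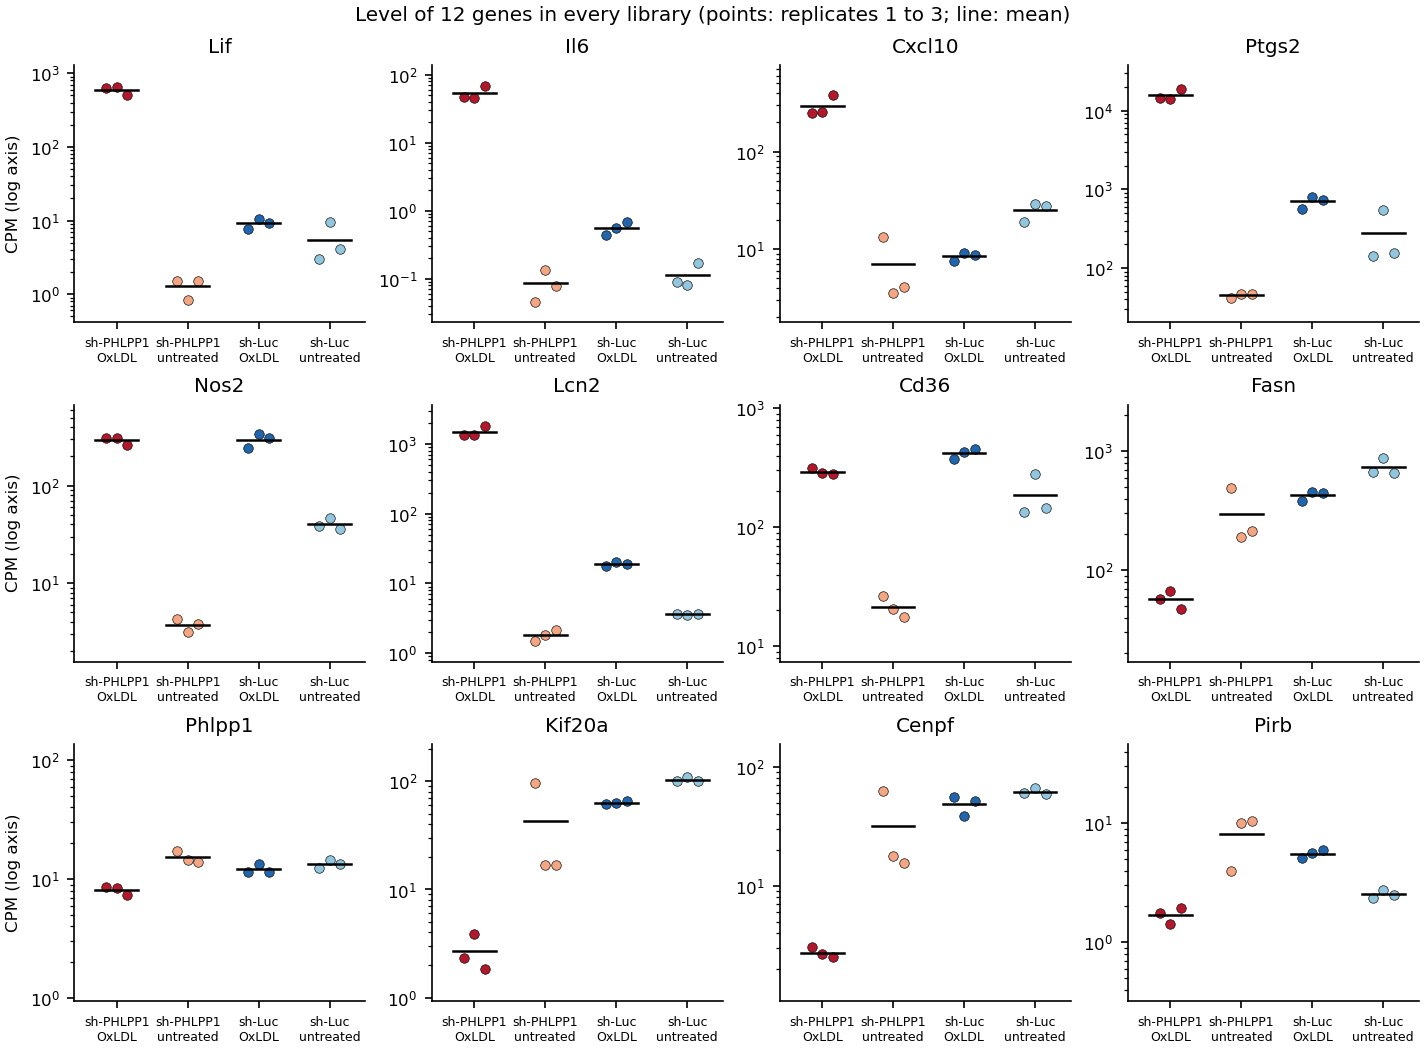
CPM of 12 genes in every library on log axes, with points for replicates 1 to 3 and a line at the mean of each group. For Lif, Il6, Cxcl10, Ptgs2 and Lcn2 the OxLDL libraries labelled sh-PHLPP1 stand above the other 9, for Fasn, Phlpp1, Kif20a, Cenpf and Pirb below them, and untreated replicate 1 of that line stands apart for Kif20a, Cenpf, Fasn and Pirb.

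The stretches upstream of 3 of these genes are shown because their inducible elements are classical; they were chosen after the matches were seen, and the windows of Lcn2, Il1b, Ptgs2, Urah and Csf2 held no match. They are the 250 bases before the RefSeq start site on GRCm38.p6, written 5′ to 3′ on the gene's strand, with capitals marking matches on either strand to a kappa-B motif (GGG, any 2 bases, TTTCC), an interferon-stimulated response element (ISRE: GAAA, any 2 bases, GAAA) or an AP-1 site (TGANTCA).
Cxcl10, chr5:92348890-92349139, minus strand: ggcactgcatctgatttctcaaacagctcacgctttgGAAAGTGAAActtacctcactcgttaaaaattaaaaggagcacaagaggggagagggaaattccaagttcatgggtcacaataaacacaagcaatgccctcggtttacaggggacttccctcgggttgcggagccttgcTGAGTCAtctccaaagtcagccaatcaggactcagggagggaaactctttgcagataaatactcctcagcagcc
Il6, chr5:30012864-30013113, plus strand: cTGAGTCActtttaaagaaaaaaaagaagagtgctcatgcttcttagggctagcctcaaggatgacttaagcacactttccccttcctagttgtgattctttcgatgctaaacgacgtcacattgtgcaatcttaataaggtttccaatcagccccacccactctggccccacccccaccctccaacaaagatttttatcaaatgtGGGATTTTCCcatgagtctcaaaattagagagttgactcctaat
Cxcl3, chr5:90785851-90786100, plus strand: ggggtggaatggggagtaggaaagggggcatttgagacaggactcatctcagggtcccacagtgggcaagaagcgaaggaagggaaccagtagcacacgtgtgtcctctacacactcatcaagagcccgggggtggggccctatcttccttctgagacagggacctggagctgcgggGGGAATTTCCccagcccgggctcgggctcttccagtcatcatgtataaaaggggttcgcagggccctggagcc
Il6 and Cxcl3 hold a kappa-B match and Cxcl10 an ISRE match in these windows. The kappa-B letters used are strict, and a window without a match to them can still hold a variant of the site. Over windows that also take in 50 bases after the start site, the kappa-B letters were found in 2.82% of 1277 windows of genes with a higher interaction, 1.58% of 1838 windows of genes with a lower one, 1.66% of 8783 windows of tested genes that were not called and 1.63% of all 32851 RefSeq windows. In the same order the shares were 5.01%, 2.45%, 3.23% and 3.44% for the ISRE letters and 7.20%, 4.68%, 4.88% and 7.81% for AP-1. These are descriptions of letters in a short window and say nothing about binding.

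Haematopoietic growth factors and matrix proteases included further large values. Of 14 genes of the colony-stimulating factor and interleukin-6 family 7 were higher and 1 lower. Csf3, which encodes the granulocyte factor G-CSF, rose in both lines. Csf3 stood at 5300.0, 5879.8 and 7648 CPM with OxLDL and 4.86, 3.63 and 4.99 CPM without it in the line labelled sh-PHLPP1, against 455, 536 and 462 CPM with OxLDL and 10.1, 25.1 and 12.0 CPM without it in the sh-Luc line. Its line difference was 3.70 after OxLDL and -1.81 before it (interaction 5.51 ± 0.43, adjusted p = 6.59e-06). The lower one was Il6ra, the interleukin-6 receptor. Il6ra stood at 5.00, 4.92 and 4.81 CPM with OxLDL and 41.6, 37.5 and 40.8 CPM without it in the line labelled sh-PHLPP1, against 22.5, 20.8 and 22.0 CPM with OxLDL and 41.2, 39.2 and 38.6 CPM without it in the sh-Luc line. The untreated lines overlapped, and after OxLDL the line labelled sh-PHLPP1 was the lower one in every library (line difference -2.15, interaction -2.16 ± 0.14). Of 25 matrix proteases and inhibitors 18 were tested, and 6 of these were higher (33.3%) and 3 lower (16.7%). The collagenase gene Mmp13 was at or under 0.201 CPM in the 9 other libraries and at 16.1, 15.9 and 14.7 CPM in the OxLDL libraries labelled sh-PHLPP1. Serpinb2, an inhibitor of plasminogen activators, had an interaction of 8.04 ± 0.49, and the gelatinase gene Mmp9 rose 40.0-fold in that line and 2.42-fold in sh-Luc.

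Nos2, the inducible nitric oxide synthase, shows a gap that closed. Nos2 stood at 305, 307 and 262 CPM with OxLDL and 4.31, 3.13 and 3.80 CPM without it in the line labelled sh-PHLPP1, against 246, 338 and 308 CPM with OxLDL and 38.7, 46.1 and 35.7 CPM without it in the sh-Luc line. Untreated, the line labelled sh-PHLPP1 was below sh-Luc in every library (-3.43 ± 0.17, adjusted p = 7.46e-07), and after OxLDL the lines overlapped (-0.03 ± 0.15, 95% interval -0.35 to 0.29). Acod1, which makes itaconate, went further. Acod1 stood at 3355, 3522 and 3177 CPM with OxLDL and 12.4, 10.3 and 10.9 CPM without it in the line labelled sh-PHLPP1, against 271, 356 and 306 CPM with OxLDL and 51.0, 38.6 and 54.0 CPM without it in the sh-Luc line. Its line difference was 3.43 after OxLDL and -2.10 before it, and no 2 groups overlapped. Marcks, which encodes a membrane-bound substrate of protein kinase C, had an interaction of 7.95 ± 0.71, with 96.0, 97.7 and 104 CPM in the OxLDL libraries labelled sh-PHLPP1 against 0.659, 1.25 and 0.934 CPM in the sh-Luc ones. Its relative Marcksl1 had 3.37 ± 0.32. Urah, whose product acts in uric acid breakdown, had 6.60 ± 0.83 with 6 counts over the untreated libraries labelled sh-PHLPP1, and its fitted value without replicate 3 of these was 10.42.

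Interferon-response genes differed in another way, since OxLDL lowered more of them than it raised in both lines. Of 38 tested, OxLDL lowered 19 and raised 6 in the line labelled sh-PHLPP1, and lowered 29 and raised 0 in sh-Luc, with median changes of -0.68 in the line labelled sh-PHLPP1 and -1.13 in sh-Luc. The interaction was higher for 15 (39.5%) and lower for 1 (2.63%, Oas3), against 11.1% and 13.6% of all tested genes. Ifit1, an interferon-induced RNA-binding protein, changed in opposite directions. Ifit1 stood at 85.2, 77.7 and 94.4 CPM with OxLDL and 16.9, 17.2 and 17.6 CPM without it in the line labelled sh-PHLPP1, against 8.83, 8.46 and 9.47 CPM with OxLDL and 32.6, 19.6 and 35.8 CPM without it in the sh-Luc line. It rose 4.97-fold in the line labelled sh-PHLPP1 and fell 3.29-fold in sh-Luc (interaction 4.03 ± 0.26, adjusted p = 1.60e-06). Irf7, the interferon regulatory factor, is of the other kind. Irf7 stood at 393, 347 and 444 CPM with OxLDL and 322, 392 and 426 CPM without it in the line labelled sh-PHLPP1, against 114, 117 and 122 CPM with OxLDL and 463, 196 and 499 CPM without it in the sh-Luc line. It had no called change in the line labelled sh-PHLPP1 (0.05 ± 0.26, 95% interval -0.51 to 0.62) and fell in sh-Luc (-1.71 ± 0.27); the sh-Luc untreated replicate 2 was nearer to the OxLDL libraries than its replicates were. The mean log2(CPM + 1) of the list was 5.89, 5.83 and 5.96 with OxLDL and 6.00, 6.15 and 6.19 without it in the line labelled sh-PHLPP1, against 4.97, 4.95 and 5.02 with it and 6.34, 5.52 and 6.41 without it in sh-Luc. Without sh-Luc untreated replicate 2 the interaction was higher for 20; it was higher for 9 without sh-PHLPP1 OxLDL replicate 3, sh-Luc OxLDL replicate 2 or sh-Luc untreated replicate 1 or 3, and for 8 with total-count scaling.

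Class I antigen presentation genes had moderately higher values. Of 21 antigen presentation genes tested 7 had a higher interaction (33.3%) and 0 a lower one (median 0.73). The shares over all tested genes were 11.1% and 13.6%. In each of the 7 the gap opened with OxLDL. H2-D1, a class I heavy chain, stood at 2733, 2990.1 and 4038 CPM in the OxLDL libraries labelled sh-PHLPP1 and 1328, 1811 and 1641 CPM in the sh-Luc ones (interaction 1.01 ± 0.25). The class I genes share sequence, which makes H2-Q7 (1.71 ± 0.44) and H2-Q4 (1.02 ± 0.21) less certain. The count was 3 without sh-Luc OxLDL replicate 1 and 4 without sh-Luc untreated replicate 1 or 3, and 3 with total-count scaling. The immune checkpoint ligand Cd274, outside that list, opened upwards. Cd274 stood at 136, 123 and 123 CPM with OxLDL and 4.81, 5.49 and 5.98 CPM without it in the line labelled sh-PHLPP1, against 16.4, 19.0 and 16.9 CPM with OxLDL and 4.39, 5.15 and 4.85 CPM without it in the sh-Luc line. The untreated groups overlapped and the OxLDL groups did not (interaction 2.69 ± 0.17, adjusted p = 1.14e-06).

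Pattern recognition receptors had calls in both directions, 20.8% higher and 16.7% lower with a median of -0.01. The shares over all tested genes were 11.1% and 13.6%. Of 24 tested 5 were higher, among them Tlr2 (1.56 ± 0.42), Cd14 (1.49 ± 0.33) and the inflammasome sensor Nlrp3 (1.34 ± 0.25), and 4 were lower: Tlr3, Tlr4, Tlr8 and Tlr13. Tlr13, a sensor of bacterial ribosomal RNA in mice, moved in opposite directions. Tlr13 stood at 16.2, 19.5 and 19.3 CPM with OxLDL and 33.7, 36.0 and 30.7 CPM without it in the line labelled sh-PHLPP1, against 78.5, 84.2 and 86.6 CPM with OxLDL and 32.9, 40.9 and 33.4 CPM without it in the sh-Luc line. OxLDL lowered it 1.82-fold in the line labelled sh-PHLPP1 and raised it 2.32-fold in sh-Luc (interaction -2.08 ± 0.17, adjusted p = 9.95e-06). Of 26 immediate early factors and DUSP phosphatases 9 were higher and 1 lower, and the higher count was 16 without sh-PHLPP1 untreated replicate 1. Dusp5 and Dusp2, which inactivate ERK kinases, led with 3.96 ± 0.39 and 3.09 ± 0.42. Junb had 2.29 ± 0.28 but overlaps Prdx2 on the other strand, and the strand setting of the counting is not given in the sources used here.

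**Figure D3:**
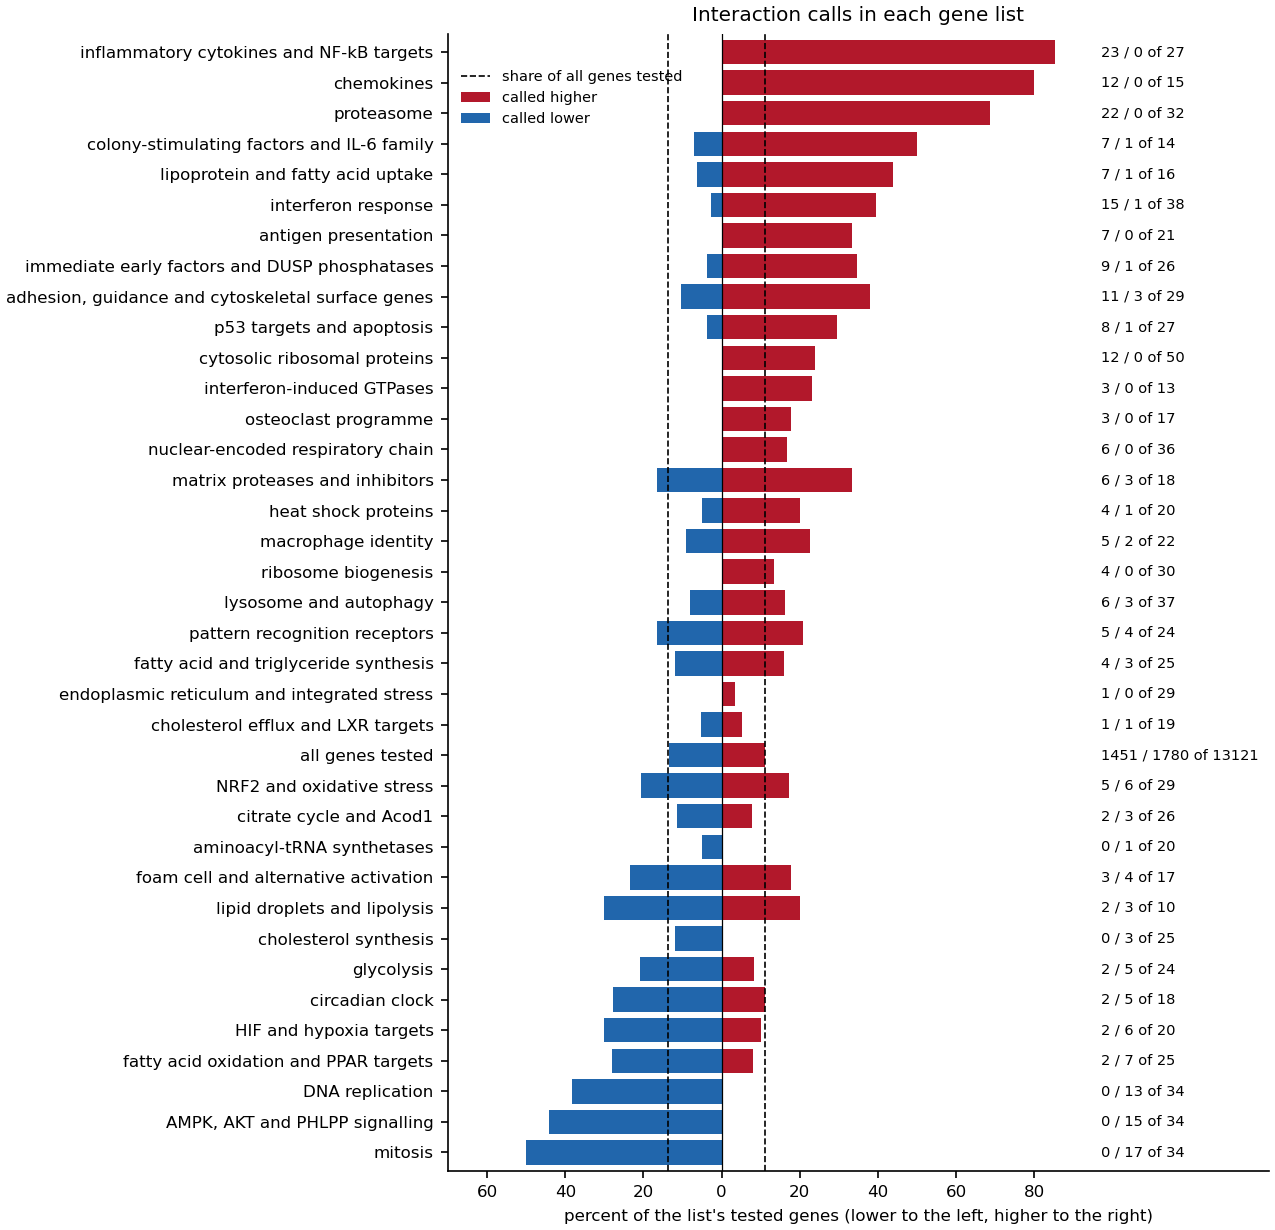
Share of each list's tested genes with a higher (right) or lower (left) interaction, with the counts at the right edge as higher / lower of tested and dashed lines at the shares of all tested genes, 11.1% and 13.6%. Inflammatory genes and chemokines reach the farthest to the right, mitosis and the AMPK, AKT and PHLPP genes the farthest to the left.

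Several genes of lipoprotein uptake stood low in the untreated line labelled sh-PHLPP1 and nearer to sh-Luc or above it after OxLDL. Of 16 tested, 5 were lower and 1 higher untreated, and 4 lower and 4 higher after OxLDL. The interaction was higher for 7 (43.8%) and lower for 1 (6.25%), against 11.1% and 13.6% of all tested genes. The list's median interaction was 0.26 with TMM scaling and -0.14 with total-count scaling, where the counts were the same. Cd36 (ENSMUSG00000002944, chr5:17781690-17888801), the scavenger receptor and fatty acid transporter, closed its gap. Cd36 stood at 315, 285 and 278 CPM with OxLDL and 26.4, 20.6 and 17.6 CPM without it in the line labelled sh-PHLPP1, against 376, 432 and 450.2 CPM with OxLDL and 133, 282 and 146 CPM without it in the sh-Luc line. The untreated groups were far apart (-3.12 ± 0.26, adjusted p = 1.37e-05); after OxLDL the libraries labelled sh-PHLPP1 were still the lower ones, without a called difference (-0.52 ± 0.24, adjusted p = 0.0851, and -0.54 with a call when sh-Luc untreated replicate 2 was left out). The interaction was 2.60 ± 0.35 (adjusted p = 3.65e-04). The lipid chaperones Fabp4 and Fabp5 had 4.53 ± 0.42 and 2.60 ± 0.58: Fabp4 narrowed its gap and Fabp5 closed it. Fabp4 stood at 42.7, 52.8 and 74.1 CPM with OxLDL and 0.412, 0.433 and 0.357 CPM without it in the line labelled sh-PHLPP1, against 102, 91.3 and 101 CPM with OxLDL and 20.5, 10.1 and 18.4 CPM without it in the sh-Luc line. Msr1, the class A scavenger receptor, reversed. Msr1 stood at 853, 832 and 1067 CPM with OxLDL and 203, 203 and 190.1 CPM without it in the line labelled sh-PHLPP1, against 462, 464 and 502 CPM with OxLDL and 331, 458 and 318 CPM without it in the sh-Luc line. Its line difference was 0.95 after OxLDL and -0.89 before it. Scarb1, which binds HDL, was the lower one (-0.73 ± 0.19).

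Fatty acid synthase went the other way. Fasn stood at 57.7, 66.4 and 47.4 CPM with OxLDL and 488, 191 and 212 CPM without it in the line labelled sh-PHLPP1, against 383, 453 and 449 CPM with OxLDL and 663, 883 and 661 CPM without it in the sh-Luc line. The OxLDL libraries labelled sh-PHLPP1 were the lowest, and untreated replicate 1 of that line read higher than its replicates. Fasn (ENSMUSG00000025153, chr11:120805846-120824547) was lower in that line after OxLDL (-2.90 ± 0.31), and less so before it (-1.31 ± 0.30). The interaction was -1.60 ± 0.42 (adjusted p = 0.0170) with that library and -1.05 without it. Acaca, which makes malonyl-CoA for it, had no called interaction (-0.24 ± 0.21, adjusted p = 0.417). Srebf1, the regulator of both, had -0.73 ± 0.55 (adjusted p = 0.345), and 0.07 without untreated replicate 1 of the line labelled sh-PHLPP1; it overlaps Rai1 on the other strand. Among 25 genes of fatty acid and triglyceride synthesis 4 were higher, led by the triglyceride enzyme Dgat2 (1.83 ± 0.37), and 3 were lower: Elovl5 (-1.10 ± 0.22), Fasn and the desaturase Scd2 (-1.77 ± 0.44). These shares, 16.0% higher and 12.0% lower, were near the 11.1% and 13.6% of all tested genes. The split was 1 higher and 12 lower with total-count scaling, and the lower count was 5 without sh-PHLPP1 untreated replicate 1. Mlx, the partner of ChREBP, had 0.72 ± 0.14 but overlaps Psmc3ip on the other strand.

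In cholesterol synthesis 19 of 25 genes were lower and 0 higher in the line labelled sh-PHLPP1 after OxLDL. Before it 15 were lower and 0 higher. Over all tested genes 27.6% were lower after OxLDL and 12.2% before it. The interaction, lower for 13.6% and higher for 11.1% of all tested genes, was near these shares on the lower side. It was lower for 3 genes of the list (12.0%) and higher for 0. The lower ones included Mvd (-0.74 ± 0.21, a call lost in 3 alternative fits) and Pmvk (-0.80 ± 0.27, a call lost in 11 alternative fits); the lower count was 1 without sh-PHLPP1 OxLDL replicate 2 or sh-Luc OxLDL replicate 3 and 5 without sh-PHLPP1 untreated replicate 2, and the higher count was 3 without sh-PHLPP1 untreated replicate 1. Among 19 efflux genes and LXR targets the lysosomal cholesterol carrier Npc2 was higher (0.48 ± 0.15, a call lost in 12 alternative fits) and the phospholipid transfer protein Pltp lower (-1.01 ± 0.23); Abcg1, a cholesterol exporter, had -1.35 ± 0.47 (adjusted p = 0.0532), which missed the threshold. The efflux list had 5 higher and 2 lower without sh-PHLPP1 untreated replicate 1. Of 25 fatty acid oxidation genes and PPAR targets 7 were lower (28.0%) and 2 higher (8.0%), with a median of -0.31. The higher ones were 0 without sh-Luc OxLDL replicate 1, 2 or 3 or sh-Luc untreated replicate 1 or 3. With total-count scaling 15 of the 25 were lower and 0 higher. That scaling gave 10 lower and 0 higher in cholesterol synthesis, and 5 lower and 0 higher in the efflux list. Cpt1a, the rate-limiting step of mitochondrial fatty acid entry, changed sign. Cpt1a stood at 16.2, 13.4 and 12.4 CPM with OxLDL and 33.0, 42.5 and 46.4 CPM without it in the line labelled sh-PHLPP1, against 35.7, 36.2 and 33.1 CPM with OxLDL and 23.8, 34.8 and 23.1 CPM without it in the sh-Luc line. OxLDL lowered it 2.90-fold in the line labelled sh-PHLPP1, and the sh-Luc response of 0.36 ± 0.17 was not called; the interaction was -1.89 ± 0.25. Angptl4, an inhibitor of lipoprotein lipase and a PPAR target, opened downwards (-2.20 ± 0.32). The lipid droplet gene Plin2 rose in both lines, 2.79 on the log2 scale in the line labelled sh-PHLPP1 and 2.14 in sh-Luc, with an interaction of 0.65 ± 0.19 (adjusted p = 0.0287), and Hilpda, an inhibitor of lipolysis, had 2.59 ± 0.27. These were the 2 higher genes among 10 of lipid droplets and lipolysis (median -0.23), and Ldah (-0.51 ± 0.16), Plin3 (-0.50 ± 0.14) and Hsd17b11 (-0.50 ± 0.14) were the 3 lower ones. The higher count was 1 without sh-PHLPP1 OxLDL replicate 1 or 2, sh-PHLPP1 untreated replicate 2, sh-Luc OxLDL replicate 1 or 3 or sh-Luc untreated replicate 1 or 3, and the lower count 0 without sh-Luc OxLDL replicate 2.

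Cell-cycle genes had lower values. Of 34 mitosis genes 17 had a lower interaction and 0 a higher one (median -1.78), and of 34 DNA replication genes 13 were lower and 0 higher (median -1.01). OxLDL lowered 31 mitosis genes in the line labelled sh-PHLPP1 and 0 in sh-Luc, where 34 of the 34 were not called at a median of -0.45. The size of these values rests on untreated replicate 1 of the line labelled sh-PHLPP1. The mean log2(CPM + 1) of the mitosis list was 3.60, 3.83 and 3.75 with OxLDL and 6.67, 4.92 and 4.86 without it in that line, against 6.31, 6.18 and 6.31 with OxLDL and 6.70, 6.77 and 6.61 without it in sh-Luc. That library was as high as untreated sh-Luc, and its replicates stood between sh-Luc and the OxLDL libraries of their line. Without it the median was -0.87 for mitosis and -0.46 for DNA replication, with 22 and 18 genes lower. The mitosis count was 8 without sh-PHLPP1 OxLDL replicate 3 and 27 without sh-PHLPP1 untreated replicate 2 or 3. The DNA replication count was 6 without sh-PHLPP1 OxLDL replicate 3, 7 without sh-PHLPP1 OxLDL replicate 2, 8 without sh-Luc OxLDL replicate 2 or 3 or sh-Luc untreated replicate 1 or 3 and 20 without sh-PHLPP1 untreated replicate 2. The part of this spread between untreated libraries in the other results was not tested.

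Cenpf, a kinetochore protein, was among the 12 lowest interaction values and lay below the mitosis median of -1.78. Cenpf stood at 3.04, 2.67 and 2.52 CPM with OxLDL and 62.8, 17.7 and 15.4 CPM without it in the line labelled sh-PHLPP1, against 55.5, 38.5 and 51.8 CPM with OxLDL and 60.0, 65.7 and 58.9 CPM without it in the sh-Luc line. The line labelled sh-PHLPP1 lost 11.6-fold with OxLDL (adjusted p = 8.67e-05), while the sh-Luc response was -0.34 ± 0.40 and not called. The interaction was -3.19 ± 0.63 (adjusted p = 0.00431) and -2.26 without untreated replicate 1. Ccne2, a cyclin of the G1 to S transition, depended on it less. Ccne2 stood at 1.62, 1.60 and 2.00 CPM with OxLDL and 21.6, 18.1 and 14.1 CPM without it in the line labelled sh-PHLPP1, against 29.0, 19.8 and 29.0 CPM with OxLDL and 25.3, 45.8 and 21.3 CPM without it in the sh-Luc line. Here the 3 untreated libraries labelled sh-PHLPP1 lay close together, the highest of them within the sh-Luc range, and the interaction was -3.11 ± 0.42 with replicate 1 and -2.97 without it; the gene overlaps Ints8 on the other strand. Other cell-cycle genes among the lowest values were Kif20a (-3.29 ± 0.81), a kinesin of cytokinesis that overlaps Cdc23, the cohesin acetyltransferase Esco2 (-3.07 ± 0.59), the mitotic inhibitor Fbxo5 (-3.06 ± 0.48), the spindle gene Aspm (-2.99 ± 0.81), the repressor E2f7 (-2.94 ± 0.62), the nuclease Ankle1 (-3.53 ± 0.97) and Sapcd2 (-2.93 ± 0.89, a call lost in 9 alternative fits). The calls of Aspm and Ankle1 were lost without sh-PHLPP1 OxLDL replicate 3. Without untreated replicate 1 of that line Cenpf, Kif20a, Esco2, Fbxo5, Aspm, E2f7 and Ankle1 also had a called line difference before OxLDL, and its value was -1.90 for Cenpf, against -0.95 with that library. Ung, which removes uracil from DNA, widened its gap without a stray library. Ung stood at 4.93, 4.74 and 4.89 CPM with OxLDL and 23.8, 20.4 and 22.1 CPM without it in the line labelled sh-PHLPP1, against 32.1, 28.3 and 29.7 CPM with OxLDL and 41.3, 48.9 and 41.0 CPM without it in the sh-Luc line. Each group was clear of the others (interaction -1.64 ± 0.16, adjusted p = 4.37e-05).

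**Figure D4:**
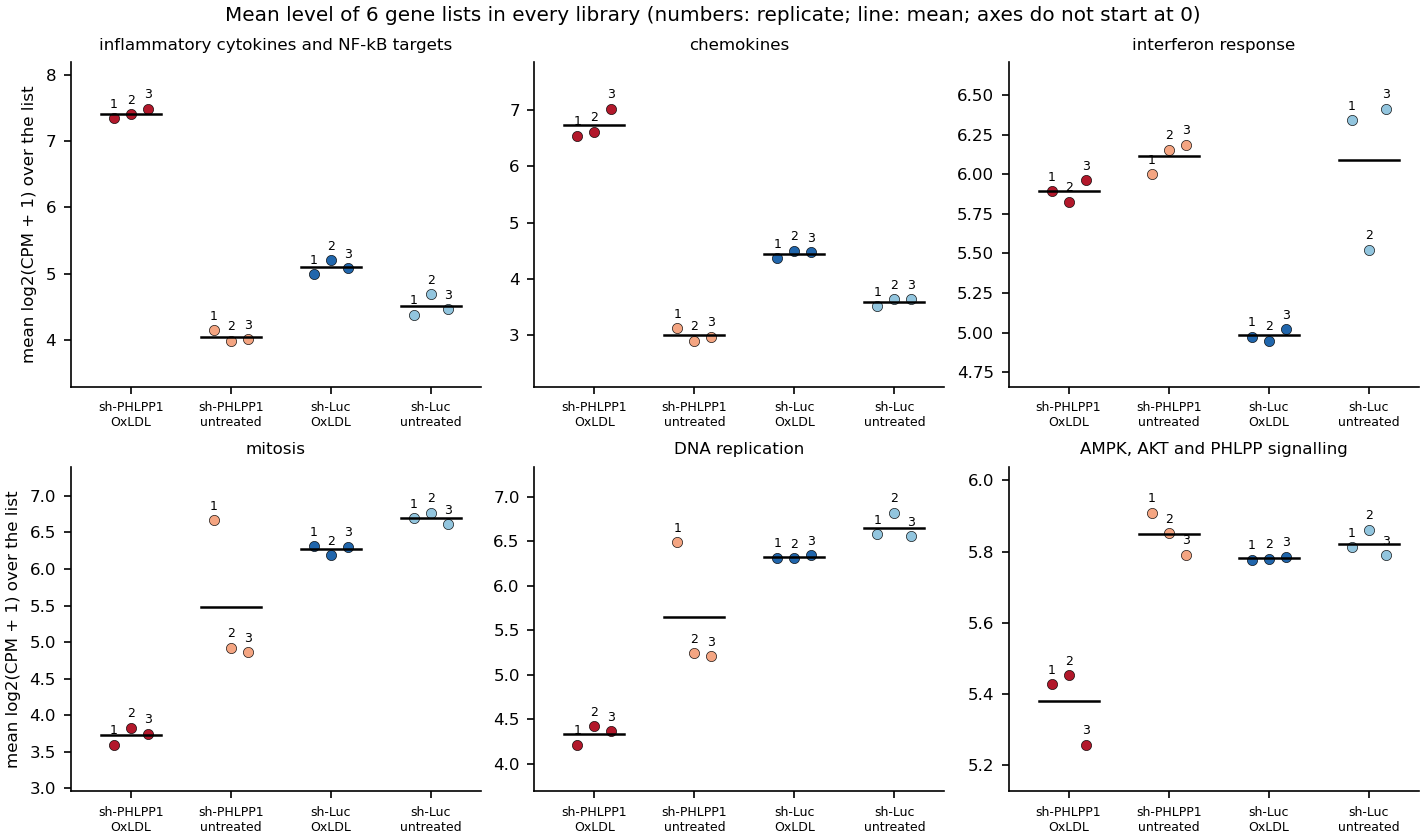
Mean log2(CPM + 1) of 6 gene lists in every library, with points labelled by replicate and a line at the mean of each group. Untreated replicate 1 of the line labelled sh-PHLPP1 reaches 6.67 for mitosis against 4.92 and 4.86 in its replicates, and sh-Luc untreated replicate 2 stands apart for the interferon response.

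A pair of the 250-base upstream stretches of this group are shown, chosen with the matches known. Capitals mark CCAAT boxes, E2F letters (TTTNNCGC) and the cell-cycle homology region (CHR, TTTGAA) on either strand, elements known from cell-cycle promoters. Among the lowest genes with a window, Sapcd2, Tacr1 and Pirb held no match and Ankle1 a CHR match alone. The E2F letters were matched in E2f7 alone.
Fbxo5, chr10:5805466-5805715, minus strand: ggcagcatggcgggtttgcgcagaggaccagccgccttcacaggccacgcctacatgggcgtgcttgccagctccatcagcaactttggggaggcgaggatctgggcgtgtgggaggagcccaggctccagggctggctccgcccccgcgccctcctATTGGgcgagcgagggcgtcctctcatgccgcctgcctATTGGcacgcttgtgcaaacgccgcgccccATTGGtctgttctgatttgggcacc
E2f7, chr10:110745189-110745438, plus strand: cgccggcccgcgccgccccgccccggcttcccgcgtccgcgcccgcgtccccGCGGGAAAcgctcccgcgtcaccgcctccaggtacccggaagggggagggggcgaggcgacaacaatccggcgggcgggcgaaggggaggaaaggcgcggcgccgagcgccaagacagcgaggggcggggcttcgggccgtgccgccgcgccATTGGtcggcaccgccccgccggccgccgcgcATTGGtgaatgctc
Fbxo5 holds 3 CCAAT boxes, and E2f7 holds 2 and an E2F match. Such boxes were found in 38.6% of windows of genes with a lower interaction, 33.0% of those with a higher one, 38.5% of those of tested genes that were not called and 37.4% of all windows. In the same order the shares were 10.0%, 7.05%, 8.32% and 5.17% for the E2F letters and 13.5%, 12.8%, 12.1% and 17.9% for CHR.

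Signalling genes around AMPK, AKT and PHLPP had moderately lower values. Of 34 tested 15 had a lower interaction (44.1%) and 0 a higher one, against 13.6% and 11.1% of all tested genes. The median was -0.51, and -0.89 with total-count scaling. At 13 of the 15 the gap opened. With 1 library left out at a time 12 to 18 were lower. They included the class I PI3-kinase subunits Pik3cg (-1.28 ± 0.21), Pik3cd (-1.10 ± 0.31) and Pik3ca (-0.78 ± 0.14), Akt1 (-0.84 ± 0.17), the AMPK subunits Prkab1 (-0.76 ± 0.17) and Prkag2 (-0.81 ± 0.18), the AMPK kinases Stk11 (-0.50 ± 0.13) and Camkk2 (-0.67 ± 0.13), and Mtor (-0.73 ± 0.19). Rps6ka1, a kinase downstream of ERK, had the smallest adjusted p of the list. Rps6ka1 stood at 61.6, 63.2 and 60.0 CPM with OxLDL and 146, 144 and 150.3 CPM without it in the line labelled sh-PHLPP1, against 116, 126 and 118 CPM with OxLDL and 169.9, 164 and 170.1 CPM without it in the sh-Luc line. No 2 groups overlapped (interaction -0.76 ± 0.12, adjusted p = 9.62e-04). Prkaa1, the catalytic AMPK subunit these cells express, did not differ detectably: 59.8, 65.5 and 63.9 CPM with OxLDL and 66.9, 69.1 and 66.7 CPM without it in the line labelled sh-PHLPP1, against 63.7, 61.3 and 70.0 CPM with it and 71.4, 69.9 and 68.0 CPM without it in sh-Luc (interaction 0.00 ± 0.13, 95% interval -0.27 to 0.28). Transcript levels do not report kinase activity.

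Metabolic genes had values in both directions. Over all tested genes the interaction was higher for 11.1% and lower for 13.6%. In glycolysis 5 of 24 were lower, among them the phosphofructokinases Pfkl (-1.80 ± 0.20) and Pfkm (-1.21 ± 0.22, which overlaps Senp1), and 2 higher, the glucose transporter Slc2a1 (1.30 ± 0.32) and Eno2 (1.60 ± 0.30). The shares in glycolysis were 20.8% lower and 8.33% higher. The lower count was 3 without sh-Luc OxLDL replicate 2 or 3 and 10 with total-count scaling. Of 20 hypoxia targets 2 were higher, Slc2a1 and Hilpda, and 6 lower (10 with total-count scaling), led by Pdk1, which holds pyruvate back from the citrate cycle. Pdk1 stood at 9.26, 11.8 and 9.77 CPM with OxLDL and 67.2, 88.6 and 76.1 CPM without it in the line labelled sh-PHLPP1, against 70.8, 67.8 and 70.8 CPM with OxLDL and 90.8, 58.8 and 82.1 CPM without it in the sh-Luc line. The OxLDL libraries labelled sh-PHLPP1 stood below the other 9 (interaction -2.76 ± 0.23, adjusted p = 1.23e-05). Of 29 NRF2 and oxidative stress genes OxLDL raised 13 and lowered 6 in the line labelled sh-PHLPP1, and raised 15 and lowered 2 in sh-Luc. Their interactions split into 5 higher and 6 lower, a split that was 1 higher and 15 lower with total-count scaling. The higher count was 2 without sh-PHLPP1 untreated replicate 3 or sh-Luc OxLDL replicate 1 or 3, and the lower count 11 without sh-Luc untreated replicate 2. Ferritin heavy chain Fth1 was higher (1.11 ± 0.21), and Gclc (-1.32 ± 0.26), Gsr (-1.01 ± 0.17) and Pgd (-1.66 ± 0.30), which serve glutathione and NADPH supply, were lower. Hmox1, haem oxygenase, rose in both lines without a called interaction (0.51 ± 0.59, adjusted p = 0.547); the sh-Luc untreated values were 172, 673 and 156 CPM. Clock genes split too: 5 of 18 were lower, such as Nr1d2 (-1.99 ± 0.34) and Arntl (-1.25 ± 0.39), and 2 higher, Nr1d1 (1.65 ± 0.37, which overlaps Thra) and Cry1 (0.94 ± 0.16). The lower count was 3 without sh-PHLPP1 OxLDL replicate 2, sh-PHLPP1 untreated replicate 2 or sh-Luc OxLDL replicate 1 or 3 and 10 with total-count scaling.

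Proteasome and ribosomal protein genes had small higher values. Of 32 proteasome genes 22 were higher (68.8%) and 0 lower (median 0.47). Of 50 ribosomal protein genes 12 were higher (24.0%) and 0 lower (median 0.60). The shares over all tested genes were 11.1% higher and 13.6% lower. With total-count scaling 6 proteasome genes were higher and 1 lower at a median of 0.09, and 1 ribosomal protein gene was higher at a median of 0.20, against -0.43 over all genes. The proteasome count was 10 without sh-Luc OxLDL replicate 3 or sh-Luc untreated replicate 1 or 3, and the ribosomal protein count 4 without sh-Luc OxLDL replicate 3 and 21 without sh-PHLPP1 OxLDL replicate 1. Psmb6, a catalytic subunit, stood at 505, 536 and 666 CPM in the OxLDL libraries labelled sh-PHLPP1 and 294, 311 and 295 CPM in the sh-Luc ones (interaction 1.23 ± 0.16, adjusted p = 3.37e-04). Replicate 3, the highest of the 3 OxLDL libraries labelled sh-PHLPP1 for Psmb6, also had the lowest TMM factor, 0.778. Of 36 respiratory chain genes 6 were higher (16.7%), among them Cycs (0.92 ± 0.23), and with total-count scaling 0 were higher and 2 lower. The higher count was 2 without sh-Luc OxLDL replicate 1 or 3 and 10 without sh-PHLPP1 untreated replicate 1. Ribosomal protein genes have near-identical copies, and their counts are less certain.

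Other lists gave scattered calls, to be read against 11.1% higher and 13.6% lower over all tested genes. Of 27 p53 targets and apoptosis genes 8 were higher, among them the death receptor Fas (4.44 ± 0.40) and the stress gene Gadd45b (3.60 ± 0.22), and 1 lower. That split was 11 higher and 7 lower without sh-PHLPP1 untreated replicate 1, and 5 higher and 6 lower with total-count scaling. Of 29 adhesion and cytoskeletal surface genes 11 were higher, with podoplanin, Pdpn (3.69 ± 0.41), after Marcks, and 3 lower, with Spn, the leukocyte sialophorin (-2.78 ± 0.92), the lowest; the higher count was 4 without sh-Luc OxLDL replicate 1 or 3. Myc, the growth regulator, led 4 higher genes among 30 of ribosome biogenesis (4.04 ± 0.88), a count of 2 without sh-Luc OxLDL replicate 2 and 14 without sh-PHLPP1 untreated replicate 1. Myc stood at 35.9, 43.7 and 41.8 CPM with OxLDL and 2.02, 1.03 and 0.713 CPM without it in the line labelled sh-PHLPP1, against 9.70, 13.3 and 9.03 CPM with OxLDL and 1.11, 12.1 and 2.87 CPM without it in the sh-Luc line. The OxLDL libraries labelled sh-PHLPP1 were above the rest, and sh-Luc untreated replicate 2 read higher than its replicates. Without that library the interaction of Myc was 2.60, and its line difference before OxLDL was -0.70 (not called), against -2.13 with it. Among 22 macrophage identity genes 5 were higher (3 without sh-Luc OxLDL replicate 1 or 3 or sh-Luc untreated replicate 3) and 2 lower, Trem2, a lipid-sensing receptor (-1.48 ± 0.31), and the myeloid factor Cebpa (-0.99 ± 0.21). Hspa5, the chaperone BiP, was the 1 higher gene of 29 on the endoplasmic reticulum stress list (1.21 ± 0.28), a count of 7 without sh-PHLPP1 untreated replicate 1. Lysosome and autophagy genes split into 6 higher (16.2%), with cathepsin L, Ctsl (1.47 ± 0.22), first, and 3 lower (8.11%) of 37. The lower count was 1 without sh-PHLPP1 OxLDL replicate 3, sh-Luc OxLDL replicate 2 or sh-Luc untreated replicate 1 or 3 and 5 without sh-PHLPP1 untreated replicate 1. Heat shock proteins split into 4 higher and 1 lower of 20, and into 0 and 7 with total-count scaling; the higher count was 1 without sh-Luc OxLDL replicate 2 or 3 or sh-Luc untreated replicate 1, and the lower count 4 without sh-Luc untreated replicate 2. Of 17 osteoclast genes 3 were higher and 0 lower, and the lower count was 3 without sh-Luc untreated replicate 2. Of 17 foam cell and alternative activation genes 3 were higher and 4 lower. Their higher count was 1 without sh-PHLPP1 OxLDL replicate 3, sh-Luc OxLDL replicate 1, 2 or 3 or sh-Luc untreated replicate 1 or 3, and their lower count 2 without sh-PHLPP1 OxLDL replicate 3, sh-Luc OxLDL replicate 1 or 2 or sh-Luc untreated replicate 1.

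Genes outside these lists show the other classes. Vegfc, a lymphatic growth factor, was low in the untreated line labelled sh-PHLPP1, with no called line difference after OxLDL. Vegfc stood at 40.9, 37.9 and 44.2 CPM with OxLDL and 3.21, 1.07 and 1.47 CPM without it in the line labelled sh-PHLPP1, against 48.1, 46.7 and 49.8 CPM with OxLDL and 35.2, 75.2 and 34.7 CPM without it in the sh-Luc line. Its baseline difference was -4.70 ± 0.39 and its difference after OxLDL -0.23 ± 0.31 (interaction 4.46 ± 0.49). Prxl2a closed from the same side (1.55 ± 0.16), and Bach1, the haem-regulated repressor of NRF2 targets, closed from above. Bach1 stood at 24.2, 21.3 and 18.0 CPM with OxLDL and 36.6, 38.0 and 35.3 CPM without it in the line labelled sh-PHLPP1, against 25.5, 24.7 and 25.7 CPM with OxLDL and 22.9, 17.8 and 20.6 CPM without it in the sh-Luc line. The untreated libraries labelled sh-PHLPP1 were above sh-Luc, and the OxLDL libraries lay slightly below it without a called difference (interaction -1.10 ± 0.18, adjusted p = 0.00142). Kif5a (-1.37 ± 0.22) and Tmem86a (-1.68 ± 0.24) closed in the same way. Cstdc4, a cystatin-like gene with close relatives, narrowed its gap but had 3 counts over the untreated libraries labelled sh-PHLPP1.

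Among genes whose gap changed sign downwards, Pirb, an inhibitory receptor of myeloid cells with close relatives in the genome, was the lowest. Pirb stood at 1.76, 1.42 and 1.92 CPM with OxLDL and 3.99, 9.95 and 10.4 CPM without it in the line labelled sh-PHLPP1, against 5.09, 5.63 and 5.92 CPM with OxLDL and 2.35, 2.78 and 2.49 CPM without it in the sh-Luc line. OxLDL lowered it 4.80-fold in the line labelled sh-PHLPP1 and raised it 2.18-fold in sh-Luc, and the order of the lines reversed (interaction -3.39 ± 0.44, adjusted p = 3.09e-04). Nrp1, the neuropilin receptor, did the same. Nrp1 stood at 39.7, 41.3 and 47.6 CPM with OxLDL and 71.7, 94.9 and 86.3 CPM without it in the line labelled sh-PHLPP1, against 52.2, 62.5 and 57.5 CPM with OxLDL and 33.2, 29.3 and 32.4 CPM without it in the sh-Luc line. Its response was -0.98 ± 0.13 in the line labelled sh-PHLPP1 and 0.86 ± 0.13 in sh-Luc. Arrb1, the beta-arrestin gene, fell in both lines, 6.47-fold and, in sh-Luc, 1.30-fold, as did Tfdp2, a partner of E2F factors (-1.99 ± 0.18), and Tacr1, the substance P receptor. Tacr1 stood at 1.96, 1.60 and 1.63 CPM with OxLDL and 21.1, 29.5 and 27.1 CPM without it in the line labelled sh-PHLPP1, against 3.91, 2.21 and 2.30 CPM with OxLDL and 5.32, 5.83 and 4.85 CPM without it in the sh-Luc line. The untreated libraries labelled sh-PHLPP1 were the highest and their OxLDL libraries the lowest for Tacr1 (interaction -2.98 ± 0.32), though its line difference after OxLDL (-0.70) was not called without sh-PHLPP1 OxLDL replicate 3. Trim65, an E3 ligase gene that overlaps Trim47 on the same strand, opened downwards (-2.97 ± 0.36).

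Gaps that widened upwards include Ccrl2, a chemerin-binding receptor. Ccrl2 stood at 182, 204 and 234 CPM with OxLDL and 6.51, 5.86 and 6.58 CPM without it in the line labelled sh-PHLPP1, against 3.12, 6.43 and 4.55 CPM with OxLDL and 2.79, 2.41 and 5.14 CPM without it in the sh-Luc line. Its line difference was 5.45 ± 0.30 after OxLDL and 0.87 ± 0.28 before it, and the baseline one was not called without sh-Luc untreated replicate 2 (0.66). Wfdc17 (3.80 ± 0.44), Calcrl, the receptor for adrenomedullin and calcitonin gene-related peptide (1.47 ± 0.16), and the autophagy receptor Sqstm1 (1.41 ± 0.27) widened too. Opened gaps with the smallest p were Syt7, a synaptotagmin of lysosome exocytosis (5.34 ± 0.32), the chemokine Cxcl16, which is also a scavenger receptor (2.95 ± 0.17), and, downwards, the lysosomal GTPase Rab7b (-2.61 ± 0.19) and the centriolar gene Cep164 (-1.96 ± 0.15). Syt7 and Cep164 had a called line difference before OxLDL too without sh-PHLPP1 untreated replicate 1. Plin3, Frs2 and Prune1 had an interaction without a called line difference in either state, at -0.50 ± 0.14, -0.60 ± 0.16 and -0.75 ± 0.21. The interaction call was lost in 2 alternative fits for Plin3 and in 4 for Frs2, among them the replicate block within line for both. Spp1, which encodes osteopontin, rose in both lines. Spp1 stood at 52022, 53970.0 and 81699 CPM with OxLDL and 10123, 18462 and 17048 CPM without it in the line labelled sh-PHLPP1, against 28965, 29818 and 30878 CPM with OxLDL and 18431, 13013 and 17986 CPM without it in the sh-Luc line. It took 1.13% to 6.36% of a library's counts, and its interaction of 1.18 ± 0.35 (adjusted p = 0.0273) was not called in 7 alternative fits.

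**Figure D5:**
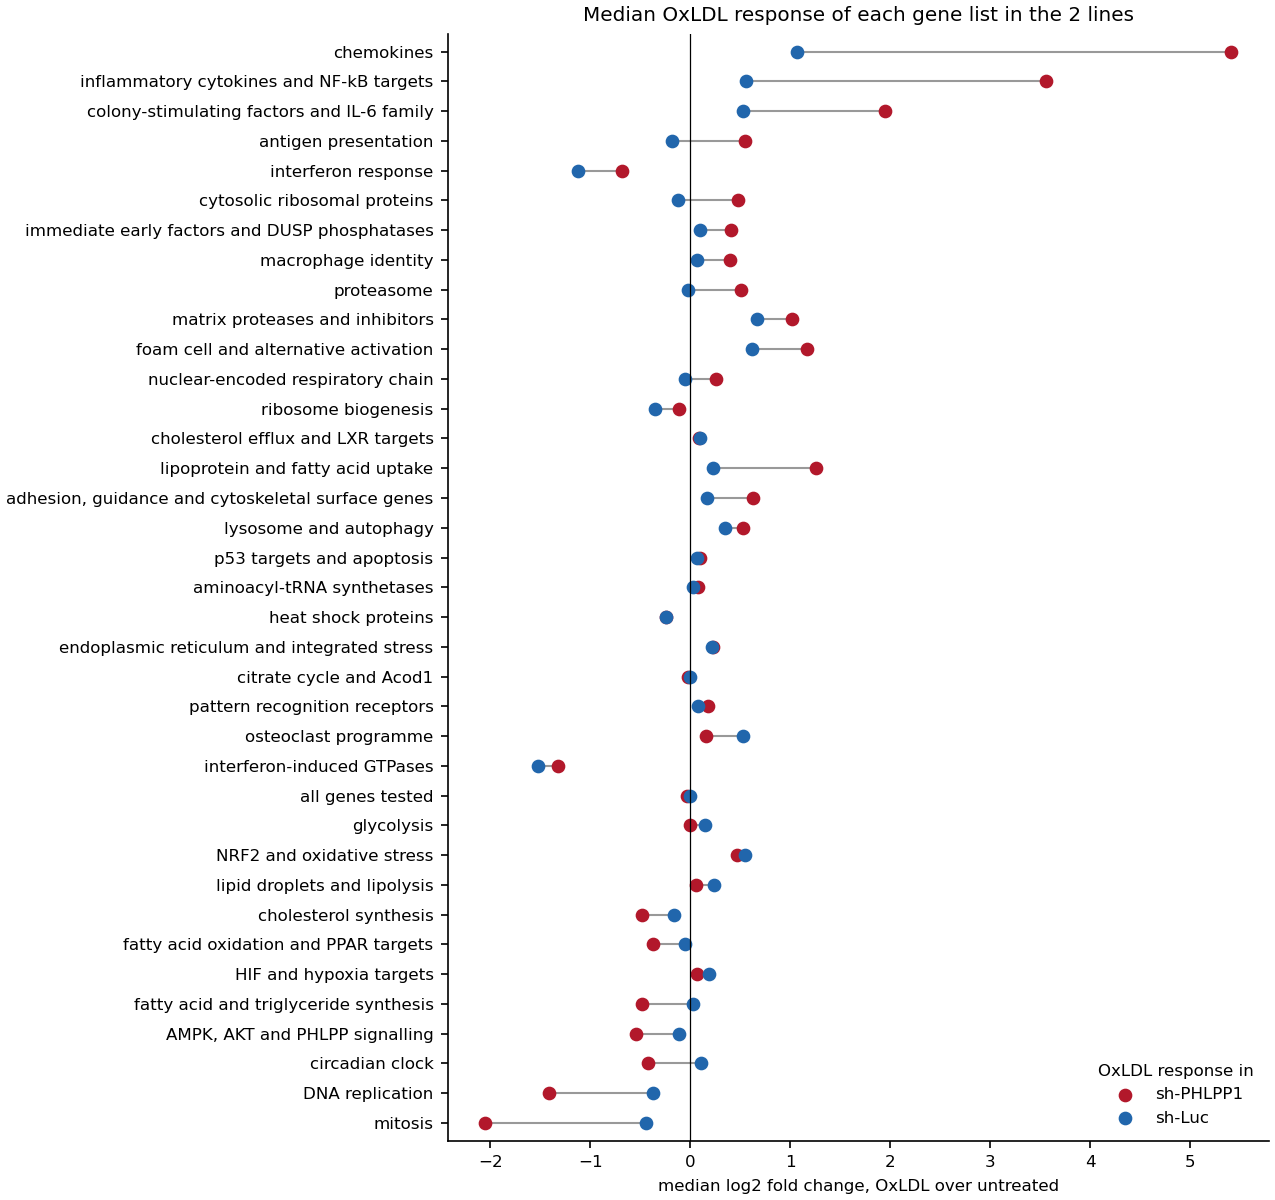
Median log2 OxLDL response of each gene list in the line labelled sh-PHLPP1 (red) and in sh-Luc (blue), lists ordered by median interaction. The chemokine responses are the farthest apart, at 5.41 in the line labelled sh-PHLPP1 and 1.07 in sh-Luc, and among lists that fell those of mitosis, at -2.05 in the line labelled sh-PHLPP1 and -0.45 in sh-Luc.

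Markers of other cell types gave few testable genes. Of the fibroblast and epithelial markers Col1a1, Col1a2 and Col3a1 were tested and none had a called interaction. OxLDL raised 3 of the 3 in the line labelled sh-PHLPP1 (median 1.32 on the log2 scale) and 0 in sh-Luc (0.26). Col1a1, a collagen gene, stood at 1.15, 1.60 and 2.37 CPM with OxLDL and 0.367, 0.533 and 0.634 CPM without it in the line labelled sh-PHLPP1, against 0.263, 1.29 and 0.187 CPM with it and 0.488, 0.804 and 1.43 CPM without it in sh-Luc; its interaction of 2.25 ± 0.84 missed the threshold (adjusted p = 0.0689) and passed it without a filter, with DESeq2 and without sh-Luc OxLDL replicate 2. The part of these genes in the other results was not tested. S100a8, a granulocyte and monocyte gene, was the only lymphocyte, granulocyte or mast cell marker tested, at 2.23, 2.72 and 5.48 CPM with OxLDL and 0.0458, 0.133 and 0 CPM without it in the line labelled sh-PHLPP1, against 3.60, 2.79 and 4.36 CPM with it and 0.842, 0.644 and 1.18 CPM without it in sh-Luc (interaction 3.63 ± 0.79, on 5 counts over the untreated libraries labelled sh-PHLPP1). Among dendritic cell markers Zbtb46 and Irf4 were lower (-3.02 ± 0.67 and -1.69 ± 0.48, with the Irf4 call lost in 4 alternative fits), and Itgax was not called (-0.88 ± 0.94).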

How the data were processed

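RNA from 12 cultures was sequenced, 3 in each of 4 groups. The deposited table holds raw counts per gene, and the submitters' processing notes name FastQC, Trimmomatic, HTSeq and DESeq2 with GRCm38; the aligner, the annotation release and the strand setting were not stated. The 1632 table lines without a symbol held 0.397% to 0.505% of a library's counts. Genes were kept by edgeR's filterByExpr, which left 13121, and scaled by TMM. A single edgeR 4.0.16 quasi-likelihood model (R 4.3.3, limma 3.58.1) of the 4 groups gave each contrast with Benjamini-Hochberg adjustment over all tested genes at 0.05; the biological coefficient of variation was 0.171. The fit was also run on simulated counts with known interaction changes. These counts held no library that stands apart, so that run does not bear on the effect of such libraries. Gene positions and overlaps came from GENCODE M21 on GRCm38, which held 37607 of the 39179 identifiers, and promoter windows from RefSeq on GRCm38.p6, where 18 of the 24 genes with the highest and lowest values have a window.

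Genes were named as the 12 highest and 12 lowest interaction values among called genes averaging at least 2 on the log2 CPM scale with responses that did not overlap, up to 3 genes per sort class and per list by p, and 9 genes of the study's subject; further list members were named after their values were seen, and some are not reported here. Predicted and clone names were left out of the highest and lowest values and of the sort classes. The members and lists were chosen with earlier results of these data known. Alternatives were DESeq2 size factors, totals alone, no filter, DESeq2 1.42.0, replicate blocks, leaving out each library, leaving out those that stand apart, and a log2 size of at least 1. Where a group held 3 or fewer counts no fold is given, and a fitted log2 value is no bound. The authors' own deposited comparison tables were not used here.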

Additional observations from a re-analysis of the deposited data

Results flagged for a closer look

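The OxLDL response differed between the lines, by the test of the interaction itself, at 1451 genes with a higher value and 1780 with a lower one in the line labelled sh-PHLPP1 than in sh-Luc (edgeR quasi-likelihood test, adjusted p below 0.05). Ranks were taken among called genes averaging at least 2 on the log2 CPM scale, without predicted or clone names, whose responses did not overlap. The separation of their responses was therefore a condition of the choice. The 12 highest log2 values were 8.15 for Lif, 8.04 for Serpinb2, 7.95 for Marcks, 7.27 for Lcn2, 7.15 for Il1b, 7.13 for Ptgs2, 6.98 for Cxcl10, 6.90 for Il6, 6.88 for Ccl5, 6.60 for Urah, 6.44 for Cxcl3 and 6.17 for Csf2. Cxcl3 rests on 1 count over the untreated libraries labelled sh-PHLPP1, and its value is no bound. The 12 lowest were -3.53 for Ankle1, -3.39 for Pirb, -3.29 for Kif20a, -3.19 for Cenpf, -3.11 for Ccne2, -3.07 for Esco2, -3.06 for Fbxo5, -2.99 for Aspm, -2.98 for Tacr1, -2.97 for Trim65, -2.94 for E2f7 and -2.93 for Sapcd2. Without untreated replicate 1 of the line labelled sh-PHLPP1, Ankle1 stood at -2.05, Kif20a at -1.94, Cenpf at -2.26, Aspm at -1.67 and Sapcd2 at -1.52.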

How the results depend on the processing

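No gene called in the interaction was called in the opposite direction in any alternative fit run, and 2099 to 3211 of the 3231 were called again. Interaction counts (total, higher, lower) were 3263, 1642 and 1621 with DESeq2 size factors, 4783, 569 and 4214 with library totals alone, 3037, 1120 and 1917 without a filter, 3922, 1995 and 1927 with DESeq2, and 1501, 633 and 868 at a log2 size of at least 1; at that size the counts were 1181 for the untreated lines, 2874 for the OxLDL-treated lines, 2873 for the OxLDL response of the line labelled sh-PHLPP1 and 491 in sh-Luc. DESeq2 called 1948 in sh-Luc. Leaving out each library gave 2114 to 4496 interaction genes (886 to 1899 higher, 1217 to 2597 lower), 1515 to 6372 for the untreated lines, 6114 to 8235 for the OxLDL-treated lines, 6151 to 7535 for the OxLDL response of the line labelled sh-PHLPP1 and 564 to 3086 in sh-Luc. Without both untreated libraries that stand apart the counts were 5319 (2228 higher, 3091 lower) for the interaction, 6267 for the untreated lines and 3528 for OxLDL in sh-Luc; without these and sh-PHLPP1 OxLDL replicate 3, a choice made after seeing the data, they were 6032 (2697, 3335), 7742 and 5231, and opened gaps made up 32.3% of the interaction genes. The cause was not tested. With the replicate number as a block the interaction counted 2965 genes (1373 higher, 1592 lower), and 2865 (1373, 1492) with the block within line. Replicates 1, 2 and 3 were passages 9, 10 and 11 in every group, so these blocks were passage blocks. Same-numbered libraries deviated together at r = -0.278 to 0.277 over 18 pairs, 5 of them above 0.1. These correlations describe deviations from group means and do not undo the match by passage. Of 3059 values of named genes under alternatives, 2909 kept direction and side of the threshold, 105 missed it, 27 newly passed it and 18 changed sign, none of the last called. Prkaa1 changed sign to -0.379 with library totals alone, -0.0570 without a filter, and -0.0165 and -0.00904 without the 2 or 3 libraries that stand apart; without single libraries it was -0.0370 to 0.0451, with -0.00871, -0.0236, -0.0186, -0.0225, -0.0270, -0.0312 and -0.00983 among the values. Col1a2 was -0.0507 with totals alone and -0.198 to 0.589 without single libraries (-0.00414 without sh-PHLPP1 untreated replicate 2). Without sh-PHLPP1 untreated replicate 1, Srebf1 was 0.0743 and Itgax 0.341, the highest of ranges that began at -1.03 and -1.74. Acaca was 0.0947 without the 3 libraries that stand apart. Calls were lost most often for Lars (15 fits), Npc2 (12) and Pmvk (11). Totals of 16020186 to 27422114 counts limit genes with few counts, such as Il6 and Cxcl3.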
